A study of Homo sapiens with 4 samples.

Results

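The heparan sulfate 3-O-sulfotransferase genes and the HS3ST1 locus on chromosome 4 are described here in nascent RNA of HCT116 cells with and without acute loss of the cohesin subunit RAD21. Of the 60048 genes in the deposited table, 8 were taken by symbol: HS3ST1, HS3ST2, HS3ST3A1, HS3ST3B1, HS3ST4, HS3ST5, HS3ST6 and AC006230.1, an lncRNA gene on the opposite strand that overlaps the start of HS3ST1. HS3ST1 and AC006230.1 were chosen because their signal was lower with auxin in these same libraries, so their values are given as a description, with no test. The other 6 genes came in by family name, and their change was tested. All 8 passed the filter on low values.

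Nascent RNA was labelled with 5-ethynyl uridine (EU), a uridine analogue through which RNA made during the labelling can be captured, and sequenced (EU-seq). HCT116 is a human colorectal carcinoma line, and all 4 libraries came from its RAD21-mAC derivative, in which RAD21 carries a degron that has the protein destroyed once auxin is present. The 2 control libraries came from cells given DMSO, and the 2 auxin libraries from cells exposed to the auxin indole-3-acetic acid (IAA) at 0.5 mM over 3 h. In both groups EU was supplied at 0.5 mM for 20 min, and labelled RNA of fly S2 cells was mixed in before capture. The labels state neither whether the line is 1 clone nor whether replicates were separate cultures, so p-values measure only the spread between these libraries. Cells without the degron given auxin were not analysed here, so RAD21 loss and other effects of auxin cannot be told apart.

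Heparan sulfate is a long sulfated sugar chain carried by core proteins at the cell surface and in the extracellular matrix. It is begun on a linkage sugar, extended by the EXT polymerases and then sulfated in the Golgi, where 3-O-sulfation is the last and rarest step. HS3ST1 makes the 3-O-sulfated site that binds antithrombin, the inhibitor of clotting proteases, whereas HS3ST3A1 and HS3ST3B1 make the sites bound by glycoprotein D of herpes simplex virus.

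Each value is a scaled signal over the whole gene span, introns included, and the number of reads behind it is unknown. Values were put on a common scale by trimmed means of M-values, which take most genes as unchanged. The fly RNA was not used in this scaling, so a change shared by most genes would not show and was not tested. Library totals on the deposited scale ran from 61135244 to 93113007. RAD21 RNA had 6160.2 ± 1405 in control and 6086 ± 246 in auxin libraries (SD, n = 2), and the degron acts on the protein, so this RNA does not check the labels. All 7 colon epithelial markers passed the filter, at 23.8 to 2324 signal per kb in control, and their sum was 59203 to 64993 in control and 58434 to 60412 in auxin libraries. Members went both ways: CDH1 had a log2 difference of 0.56 (adjusted p = 0.0580, limma), whereas EPCAM, KRT8, KRT18, KRT19 and VIL1 were lower in both auxin libraries than in both controls. Leukocyte markers summed to 101 to 102 in control and 100.2 to 112 in auxin libraries, endothelial markers to 603 to 672 and 703 to 835, and fibroblast markers to 601 to 768 and 930.1 to 1038, the last almost all COL1A1 (579 and 728 in control, 896 and 998 in auxin libraries). Of the fibroblast markers, LUM was at 0 in control 2 and auxin 1 and COL1A2 at 0 in control 2. The part of these levels in the results below was not tested. The table did not separate strands: lncRNA genes of at least 1 kb nested in a single protein-coding gene had a median signal density 0.905 times that of the host on the opposite strand (n = 1386) and 0.911 times on the same strand (n = 325).

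HS3ST1 (ENSG00000002587) lies on the minus strand of chromosome 4, at positions 11393150 to 11428894 of hg38. Its signal was 20585 and 24973 in control 1 and 2, and 5620.5 and 6260.3 in auxin 1 and 2. Both auxin libraries were far below both control libraries, the fall for which the gene was chosen. The group means were 22779 ± 3102 in control and 5940.4 ± 452 in auxin libraries (SD, n = 2), a 3.83-fold lower level with auxin. On the log2(value + 1) scale the difference was -1.93 with a standard error of 0.13. Each auxin library set against each control library gave a fold between 3.29 and 4.44, and on the scale as deposited, without rescaling, between 2.71 and 5.57. Per kb of gene, the control level of 637 ± 86.8 was above that of 96.4% of the 19874 protein-coding genes, and the auxin level was 166 ± 12.7. RNA5SP156, a 110-base pseudogene inside HS3ST1 that shares its signal, had 39.1 and 50.9 in control and 13.4 and 16.8 in auxin libraries.

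The promoter of HS3ST1 is shown because both genes of the locus start near it and both had lower signal with auxin. The window holds 250 bases before and 50 after the start, at chr4:11428845-11429144 on the minus strand of GRCh38.p14, from RefSeq, written 5′ to 3′ with the GC box, GGGCGG, in capitals. It lies wholly inside the AC006230.1 span.
HS3ST1: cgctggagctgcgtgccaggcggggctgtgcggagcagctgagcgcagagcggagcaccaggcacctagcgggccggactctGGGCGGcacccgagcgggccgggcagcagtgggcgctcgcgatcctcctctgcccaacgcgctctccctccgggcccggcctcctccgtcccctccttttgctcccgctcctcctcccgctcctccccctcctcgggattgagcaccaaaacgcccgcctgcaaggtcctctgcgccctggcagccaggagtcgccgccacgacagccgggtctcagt
Its GC content was 73%, with 30 CpG, against medians of 58.7% and 14 over the 35116 RefSeq promoters of this length. The GC box, a site read by SP-family factors, was found on either strand in 45.0% of all promoters and in all 7 HS3ST promoters, and its match in HS3ST1 began 168 bases before the start. TATAAA occurred in 11.5% of promoters and the CTCF core motif in 2.41%, and neither was found in the windows of the 7 genes. GCGTG, the core read by the aryl hydrocarbon receptor, occurred in 36.5% of promoters and in 4 of the 7 windows, in HS3ST1 at 240 bases before the start. These matches describe letters in the windows and are not evidence of binding.

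AC006230.1 (ENSG00000287778) runs the other way, on the plus strand of chromosome 4 from 11426874 to 11467802, with no stated function in the files. Its signal was 5757.5 and 6674 in control and 1922 and 1869 in auxin libraries. Both auxin libraries were well below both controls, and the auxin libraries differed little from each other. The means were 6216 ± 648 and 1895 ± 37.7 (SD, n = 2), 3.28-fold lower with auxin, with a log2 difference of -1.71 and a standard error of 0.15. The 2 genes overlap head to head over 2021 bases, 5.65% of HS3ST1 and 4.94% of AC006230.1, and signal there counts toward both because the table does not separate strands. These are the deposited spans; RefSeq's HS3ST1 record extends further upstream, to 11434327, which would make the overlap 7454 bases, and the promoter window printed above is that of the start at 11428894. If HS3ST1 had its mean density over the overlap, the overlap would hold 16.5% to 21.2% of the AC006230.1 signal. Less that amount, AC006230.1 would stand at 4928 in control and 1559 in auxin libraries, 3.16-fold lower. On this estimate the lncRNA signal outside the 2021 bases was also lower with auxin. The estimate assumes an even density along HS3ST1 that the gene totals cannot show. With the RefSeq overlap of 7454 bases the amount taken off would be larger, and the fall left in AC006230.1 was not estimated. The ratio of HS3ST1 to AC006230.1 signal was 3.58 and 3.74 in control and 2.92 and 3.35 in auxin libraries.

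**Figure D1:**
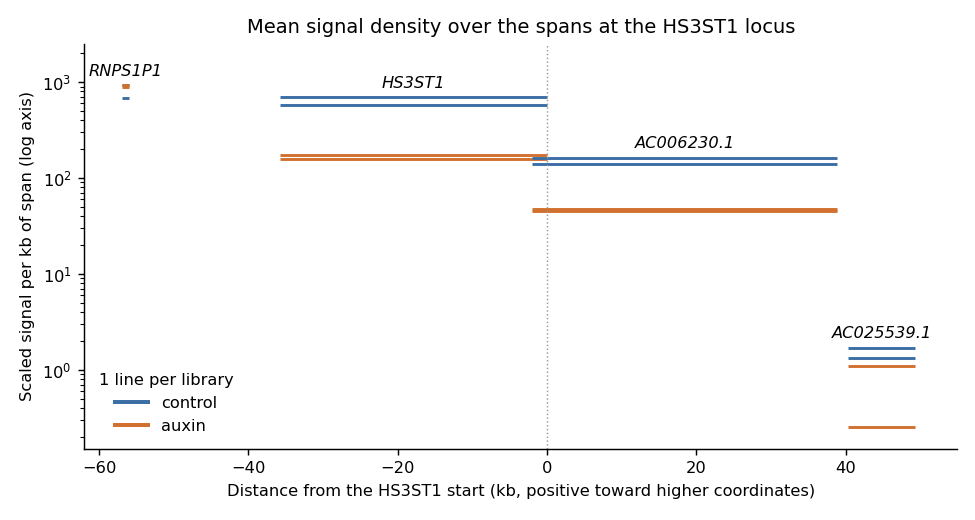
Signal per kb (log scale) of the genes around HS3ST1, drawn as horizontal lines over each gene's span, against distance from the HS3ST1 start in kb, with 1 line per library and colours for control and auxin. HS3ST1 and AC006230.1 overlap at their starts, and both auxin lines of each lie below both control lines.

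Across the whole table, 284 of 39464 tested genes had an adjusted p under 0.05 by limma (0.72%), 153 of them lower with auxin (0.388%) and 131 higher (0.332%). The lower ones include HS3ST1 and AC006230.1, which were picked for their fall in these same libraries, so this is no support for it. As a description only, HS3ST1 had the 13th and AC006230.1 the 22nd steepest fall among the 29157 tested genes with a mean of at least 50. None of the other 6 sulfotransferase genes passed (0 of 6), and none of the 6 had an unadjusted p under 0.05, against 10.2% of all tested genes.

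HS3ST1 supplied nearly all of the family's nascent signal in control cells. Summed per kb over the 7 genes, the family had 597 and 715 in control and 178 and 195 in auxin libraries. HS3ST1 accounted for 96.4% and 97.7% of that sum in control and 88.4% and 89.7% in auxin libraries. It remained by far the highest of the 7 with auxin: its level per kb was 38.7 and 68.1 times that of HS3ST3B1 in control and 10.5 and 12.7 times in auxin libraries. By control level per kb, HS3ST1 was followed by HS3ST3B1 at 12.6, HS3ST6 at 2.10, HS3ST4 at 1.97, HS3ST3A1 at 0.818, HS3ST5 at 0.671 and HS3ST2 at 0.596. HS3ST6 and HS3ST4 overlapped in their control libraries, as did HS3ST3A1 and HS3ST5, and HS3ST5 and HS3ST2, so their order is not resolved. The HS3ST4 level includes a pseudogene described with that gene, HMGN2P3, and without it HS3ST4 had 1.01 and 1.10 per kb, below both HS3ST6 controls (2.45 and 1.76) and above both HS3ST3A1 controls (0.890 and 0.745). For scale, leukocyte markers had 0.242 to 5.25 per kb in the same cells, a range that holds every member except HS3ST1, AC006230.1 and HS3ST3B1.

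**Figure D2:**
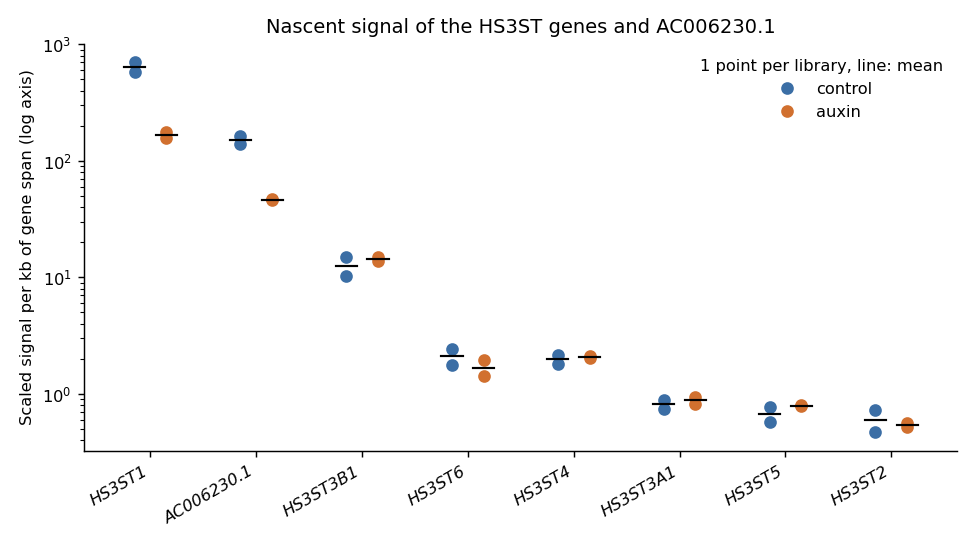
Scaled signal per kb (log scale) of the 8 genes in each of the 4 libraries, with 1 point per library, lines at the group means and colours for control and auxin. The auxin points lie far below the control points for HS3ST1 and AC006230.1, whereas the points of the other 6 genes lie close together or are mixed.

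HS3ST3B1 and HS3ST3A1, whose enzymes share the glycoprotein D type of activity, lie on chromosome 17. HS3ST3B1 (ENSG00000125430, plus strand, 14301081 to 14349404) had 719.7 and 496 in control and 726 and 667 in auxin libraries. The groups overlapped, with control 2 the lowest library. Its log2 difference was 0.22 with a standard error of 0.22 and a 95% interval of -0.27 to 0.71 (adjusted p = 0.865, limma). HS3ST3A1 (ENSG00000153976, minus strand, 13494032 to 13601929) had 96.0 and 80.4 in control and 88.6 and 101 in auxin libraries, again mixed between groups. Its log2 difference was 0.10, with an interval of -0.53 to 0.74 (adjusted p = 0.971, limma).

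The promoter of HS3ST3B1, the gene with the next highest control signal per kb in the family, is shown for comparison with that of HS3ST1. It lies at chr17:14300831-14301130 on the plus strand of GRCh38.p14, from RefSeq, with GC boxes and the CCAAT box, read by NF-Y, in capitals on either strand.
HS3ST3B1: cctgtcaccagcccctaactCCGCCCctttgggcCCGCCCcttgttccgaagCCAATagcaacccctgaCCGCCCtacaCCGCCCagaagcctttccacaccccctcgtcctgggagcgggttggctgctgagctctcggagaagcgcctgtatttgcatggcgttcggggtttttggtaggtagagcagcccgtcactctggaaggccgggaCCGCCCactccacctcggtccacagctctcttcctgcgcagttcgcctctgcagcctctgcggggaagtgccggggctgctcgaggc
It held 5 GC boxes, beginning 230 to 37 bases before the start, and a CCAAT box 198 bases before it. CCAAT occurred in 34.6% of all promoters and in 2 of the 7 windows, those of HS3ST3B1 and HS3ST3A1. In HS3ST3A1 the match began 172 bases before the start, and 4 GC boxes began 195 to 125 bases before it. GC content of the HS3ST3B1 window was 65.3% with 20 CpG, below the HS3ST1 window and above the median promoter.

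HS3ST5, whose enzyme can make both kinds of site, lies on chromosome 6 (ENSG00000249853, minus strand, 114055586 to 114343045). Its signal was 221 and 165 in control and 228 and 227 in auxin libraries. The auxin libraries were both above both controls, but by less than the gap between the controls. The log2 difference was 0.25 with a standard error of 0.24 and an interval of -0.29 to 0.79 (adjusted p = 0.859, limma). On whole-span values HS3ST5 was the only one of the 6 whose groups did not overlap, an arrangement that 38.2% of all tested genes had in either direction. HDAC2-AS2, an antisense gene covering 99.2% of the HS3ST5 span, shares its signal, so the value cannot be assigned to 1 strand.

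HS3ST4, a brain-enriched member of the family, shares most of its signal with other genes inside its span. It lies on chromosome 16 (ENSG00000182601, plus strand, 25691959 to 26137685) and had 799.6 and 957 in control and 899.5 and 942 in auxin libraries. The groups overlapped, and the log2 difference was 0.07 with an interval of -0.33 to 0.48 (adjusted p = 0.970, limma). HMGN2P3, a 273-base processed pseudogene inside the span, held 44.0% and 48.6% of that signal in control and 43.3% and 45.4% in auxin libraries. Near-identical copies of a gene can share reads, so this part of the value is uncertain. Without it, HS3ST4 had 448 and 492 in control and 510.1 and 514 in auxin libraries, with both auxin libraries above both controls and 1.05 per kb in control; this difference was not tested. AC093516.1, a same-strand lncRNA gene over 57.1% of the span, held 90.1% and 89.9% of the HS3ST4 signal in control and 85.7% and 87.1% in auxin libraries. Outside AC093516.1 only 79.0 and 96.7 were left in control and 129 and 121 in auxin libraries. Signal of the shared part cannot be assigned to either gene.

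The last 2 genes had the lowest whole-span signal of all members, and HS3ST6 was close to the filter value of 10. HS3ST2 (ENSG00000122254, chromosome 16, plus strand, 22814162 to 22916338) had 47.6 and 74.3 in control and 57.2 and 52.7 in auxin libraries. HS3ST6 (ENSG00000162040, chromosome 16, minus strand, 1911475 to 1918415) had 17.0 and 12.2 in control and 9.84 and 13.5 in auxin libraries. In both genes the groups overlapped. The log2 differences were -0.11 (interval -0.89 to 0.66, adjusted p = 0.976) and -0.30 (interval -1.59 to 0.99, adjusted p = 0.956) by limma. The HS3ST6 interval is wide, so a more than 2-fold fall there could not be told from no change. Leaving out single libraries turned the sign of HS3ST2, HS3ST3A1, HS3ST3B1 and HS3ST4, none of which was called.

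No gene around the locus passed the test. Within 2 Mb on either side the table held 63 genes whose spans do not overlap HS3ST1, and 35 passed the filter. None had an adjusted p under 0.05 (0 of 35, limma), 3 had an unadjusted p under 0.05 (10.2% of all tested genes did), and all 3 were higher with auxin. The median log2 difference of the 35 was 0.068, against 0.013 over all genes.

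The nearest tested gene beyond the HS3ST1 end, RNPS1P1, is a processed pseudogene 20.3 kb away. It had 623 and 850.2 in control and 824 and 852 in auxin libraries, with overlapping groups (log2 difference 0.20, adjusted p = 0.865, limma). AC025539.1 lies 40.4 kb beyond the HS3ST1 start but close to the other member of the locus. It begins at 11469250 on the plus strand, shortly past the end of AC006230.1 at 11467802 on the same strand. AC025539.1 had only 11.9 and 15.3 in control and 9.84 and 2.25 in auxin libraries (-1.29, standard error 0.79, adjusted p = 0.681, limma). These low values do not resolve whether it fell. The closest tested protein-coding gene, CLNK, an adaptor of immune receptor signalling 708 kb away, had 217 and 233 in control and 170.0 and 219 in auxin libraries (-0.22, adjusted p = 0.882). ZNF518B, a zinc finger gene at 936 kb, differed by -0.14 (adjusted p = 0.907), and RAB28, a small GTPase gene at 1939 kb on the other side, by 0.19 (adjusted p = 0.779). DEFB131A, a defensin gene at 1943 kb, differed by -0.11 (adjusted p = 0.992).

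SLC2A9, a urate transporter gene 1338 kb away, had more signal with auxin in both libraries. It had 4914 and 3988 in control and 6853 and 7743 in auxin libraries, both auxin libraries above both controls. The log2 difference was 0.72 with a standard error of 0.15 and an adjusted p of 0.0706 by limma, which misses the threshold. WDR1, an actin disassembly factor gene at 1276 kb, had 33309.9 and 35741 in control and 39535 and 46977 in auxin libraries (0.32, adjusted p = 0.295). SLC2A9-AS1, the third gene with an unadjusted p under 0.05, lies inside SLC2A9 and shares its signal (0.93, adjusted p = 0.197). With the replicate number as a block all 3 were called, as were 10.8% of all tested genes.

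**Figure D3:**
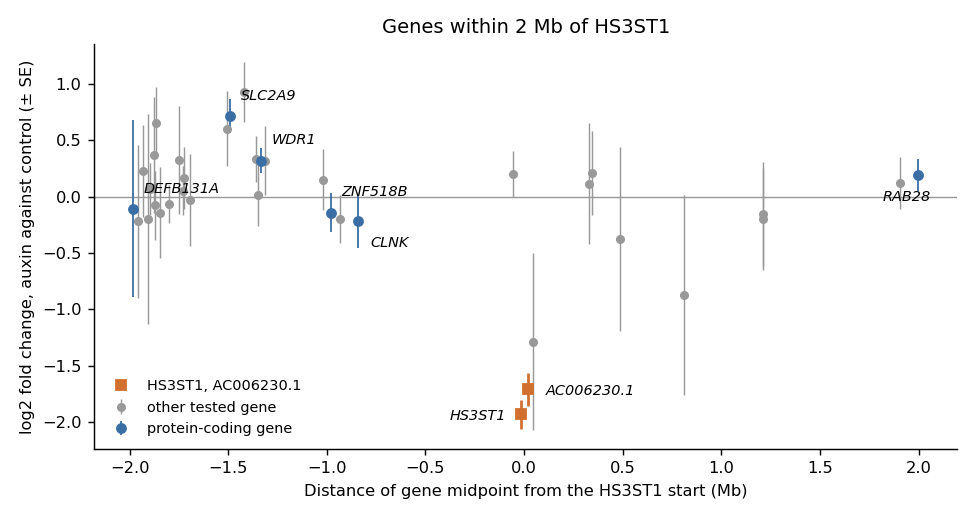
Log2 fold change, auxin against control, of HS3ST1, AC006230.1 and the tested genes within 2 Mb, against the distance of each gene's midpoint from the HS3ST1 start in Mb, with bars for the standard error. HS3ST1 and AC006230.1 (squares) stand at -1.93 and -1.71, and the protein-coding neighbours (blue) lie between -0.22 and 0.72.

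Of the remaining heparan sulfate genes, COL18A1 alone passed the test. Over 6 lists of pathway genes, 45 of 45 were tested, 1 had an adjusted p under 0.05 (0.72% of all genes did) and 2 an unadjusted p under 0.05 (10.2%). The median log2 difference was -0.087, against 0.013 over all genes, and the range was -0.85 to 0.31. Both auxin libraries were below both controls in 13 genes and above them in 7, against 19.2% and 18.9% of all tested genes. None of the 7 linkage enzyme genes was called, and FAM20B, the xylose kinase that permits chain extension, had the smallest p (5241 and 5130.4 in control, 4153 and 4324 in auxin libraries; -0.29, adjusted p = 0.496, limma). None of the 5 EXT family genes was called either, EXT1 having the smallest p (0.15, adjusted p = 0.809).

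Among the 9 other modification genes, which set the sulfation on which HS3ST1 acts, 0 were called and 7 had a log2 difference below 0, as did 48.2% of all tested genes. HS6ST2, a 6-O-sulfotransferase, had the smallest p, with 9972 and 9489 in control and 6942 and 7867 in auxin libraries. Its auxin libraries lay below its controls, and the log2 difference was -0.40 with a standard error of 0.13 (adjusted p = 0.254, limma). None of the 4 genes listed under trimming was called, HPSE2, a heparanase homologue, having the smallest p (-0.28, adjusted p = 0.719, limma). None of the 7 genes of sulfate donor and sugar supply was called, UGDH, which makes UDP-glucuronic acid, having the smallest p (0.30, adjusted p = 0.534).

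Of the 13 core protein genes, COL18A1 was the 1 that passed the test. It encodes collagen XVIII, a basement membrane proteoglycan and the source of endostatin, and lies on chromosome 21 (ENSG00000182871, plus strand, 45405165 to 45513720). Its signal was 19977 and 20351 in control and 11319 and 11058 in auxin libraries, with the groups far apart. The log2 difference was -0.85 with a standard error of 0.11 (adjusted p = 0.00708, limma). Without control 1 the adjusted p was 0.0503, without control 2 it was 0.0741, and on the scale as deposited the call was lost. COL18A1-AS1 and COL18A1-AS2, antisense genes within the span that share its signal, differed by -1.03 and -1.19 (adjusted p = 0.0285 and 0.0225, limma). Of the 13 genes, 11 had a log2 difference below 0, as did 48.2% of all tested genes, and the median was -0.14.

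**Figure D4:**
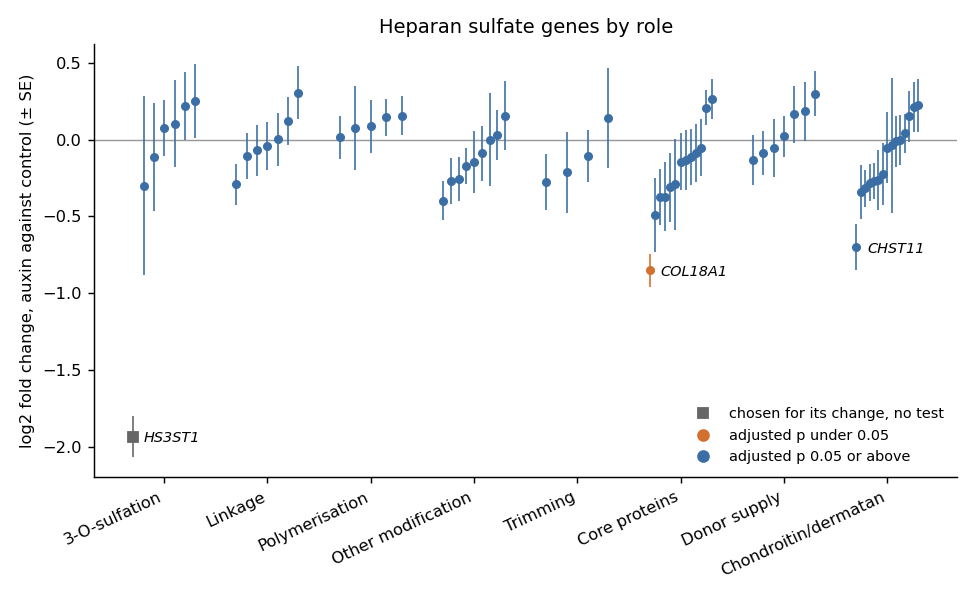
Log2 fold change, auxin against control, with the standard error as bars, for the 3-O-sulfotransferase genes and the other genes of heparan and chondroitin sulfate synthesis grouped by role. HS3ST1, drawn as a square because it was chosen for its change, stands at -1.93, and COL18A1 at -0.85 is the only tested gene coloured as called.

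The genes with a profile most like that of HS3ST1 over the 4 libraries are given next. The measure is the root mean square difference of centred log2 values, over 29155 genes with a mean of at least 50, as a description with no test. The 5 closest were CNTNAP3 (0.092), SOX9 (0.094), MKX (0.10), IRS1 (0.11) and CNTNAP3C (0.11). AC006230.1 stood at 0.13. SOX9, a transcription factor of intestinal progenitors, had 4537 and 6493 in control and 1261 and 1506 in auxin libraries. IRS1, the insulin receptor adaptor, had 11476 and 12082 in control and 2834 and 2829 in auxin libraries. CNTNAP3 and CNTNAP3C are near-identical copies whose reads may be split between them.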

How the data were processed

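The authors deposited 1 table with a signal per gene and library, gene spans and gene types. The submitters' processing notes name Trimmomatic 0.39, Bowtie2 2.4.5, deepTools 3.5.1, hg38 and dm6 without their roles. The counter, annotation and scale factor are not given in the sources used here. The deposited signal is scaled, not counts: values up to 20 steps lay within 0.01 of whole multiples of a step particular to each column, for 100% of values in 3 libraries and 96.8% in auxin 1. The steps were not treated as reads, so the depth in reads is unknown. Other deposited columns, such as start, end and length, were used for positions and density. The table names no build: of 37753 symbols matched to RefSeq's GRCh38 table, 19990 starts lay 1 base before and 20161 ends were equal, so starts are printed 1 higher, as hg38.

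The M-value scaling trimmed 30% of log ratios and 5% of levels, and genes were kept that reached the equivalent of 10 in 2 or more libraries and summed to 15 or more. log2(value + 1) was fitted with limma 3.58.1 in R 4.3.3 (lmFit, eBayes with trend), auxin against control, with Benjamini-Hochberg adjustment over all tested genes. Fold changes of low genes are understated by the pseudocount of 1. Tables came from pandas 2.3.3 and figures from matplotlib 3.10.9, under Python 3.11.15. The members and lists were chosen with earlier results of these data known. Named genes were all members, tested protein-coding neighbours within 2 Mb, called genes or the smallest p of each list, and the 5 profiles nearest HS3ST1. Alternatives were other scalings and filters, the pseudocount, the replicate block and leaving out each library.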

Additional observations from a re-analysis of the deposited data

How the results depend on the processing

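With 2 libraries a group, depth unknown and no separation of strands, changes of low genes such as HS3ST6 are poorly resolved. The HS3ST1 log2 difference ran from -2.07 to -1.81 when single libraries were left out. HS3ST1 was chosen for its fall in these same libraries, so the kept direction followed from that choice and is no support. The number of genes called was 55 on the scale as deposited, 4264 with the replicate block and 57 to 674 when single libraries were left out (113 without control 1, 57 without control 2, 674 without auxin 1, 512 without auxin 2); scaling by library size alone gave 142 higher and 128 lower. Of the pathway genes, 0 were called on the deposited scale, 4 with the replicate block (COL18A1, SDC1, HS6ST2, GPC1) and 0 to 2 when single libraries were left out. Of the neighbours, 3 were called with the replicate block (SLC2A9, SLC2A9-AS1, WDR1) and 0 to 1 when single libraries were left out (SLC2A9 without auxin 1, adjusted p = 0.0161, limma). A fit without 1 library leaves that group a lone sample, which is assumed to vary like the other group. The replicate block fit had infinite prior degrees of freedom, against 8.11 in the main fit. Its p-values therefore rest on the spread expected at each gene's level, and not on the gene's own spread. The block called none of the 6 other HS3ST genes. The numbers are not known to pair the samples: replicate 1 minus 2 correlated between groups at r = 0.231 across 39464 genes, which are not independent. Left-out libraries moved HS3ST2 between -0.43 and 0.19, HS3ST3A1 between -0.032 and 0.23, HS3ST3B1 between -0.060 and 0.49, and HS3ST4 between -0.053 and 0.19 (HS3ST4 turned without control 1, the others without control 2). HS3ST6 has no value with a mean of at least 50 required. The cause was not tested.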

Other observations

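Chondroitin and dermatan sulfate are built on the same linkage sugar as heparan sulfate by a separate set of enzymes. Of their 15 genes, 15 were tested and 0 were called by limma (0.72% of all tested genes were), 4 had an unadjusted p under 0.05 (10.2%), and the median log2 difference was -0.052, against 0.013 over all genes. CHST11, a chondroitin 4-O-sulfotransferase, had the smallest p of the list. It had 9355 and 7997 in control and 4823 and 5883 in auxin libraries, with the groups apart. The log2 difference was -0.70 with a standard error of 0.15 (adjusted p = 0.0757, limma), which misses the threshold. Without auxin 2 it was called (adjusted p = 0.00537), with the lone auxin library assumed to vary like the controls, and without auxin 1, control 1 or control 2 it was not (0.187, 0.244 and 0.157). With the replicate block 4 of the 15 were called, all lower: CHST11, CHSY1 (adjusted p = 0.0197, limma), CHPF (0.0207) and CHST15 (0.0403), where 10.8% of all tested genes were called. The block p-values take the spread from the trend over all genes, not from each gene's own libraries.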
